A study of Mus musculus with 15 samples.

Results

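The genes described here are 10 vessel genes whose products are made mainly by endothelial cells, taken by name from the count table of the study: Pecam1, Cdh5, Kdr, Flt1, Tek, Tie1, Vwf, Emcn, Cldn5 and Esam. They are 10 of the 32543 genes in the table. The rule names genes and uses no measured value, but it was written with earlier results of these data known. All 10 passed the filter on low counts. Endothelial cells line blood vessels, and a growing tumor depends on the vessels it draws in from its host. They hold to each other through junction proteins, take growth signals from VEGF and angiopoietins through receptor kinases, and let leukocytes leave the blood through adhesion molecules that inflammation raises. The WEHI-164 cells injected are a fibrosarcoma line, and the transcripts of these genes are read here as coming mainly from the vessels of the tumor. Only whole tumors were used, with no tumor cells or sorted cells alone, so the share of other cells in these transcripts was not tested.

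RNA came from whole subcutaneous WEHI-164 tumors in wild-type female BALB/c mice, 3 tumors on each of 5 harvest days. Day 0 tumors were untreated, and tumors of days 1, 3, 5 and 7 received poly(I:C), a synthetic double-stranded RNA that Toll-like receptor 3 detects, by daily injection into the tumor. The labels give 1 µg in 25 µL per injection, for a planned 6 doses, but another description of the same time course in the study gives a higher dose, so the dose is uncertain. No vehicle-treated tumors were used here, so treatment and the age of the tumor cannot be told apart. Mouse age was not given in the labels, and the study's description of n as mice is read as 1 tumor per mouse. Total counts were 23.7 to 31.9 mega-counts per tumor, and the lowest count of any of the 10 genes was 42, for Tek in day 7 replicate 3, where counting error alone is 15.4%. Vim and Col1a1, a mesenchymal filament and a collagen of connective tissue, picked for this check, were present in every tumor, at no less than 2762 and 487 CPM (counts scaled to effective library sizes).

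A single tumor stood apart and touches most of what follows. Day 3 replicate 1 lay at 144 on the first principal component, against -77.0 to 45.1 for the other 14 tumors. It had the highest value of the 15 tumors for all 10 endothelial genes. It was also the highest tumor for 10 of 10 skeletal muscle genes, 6 of 6 adipocyte genes tested, 6 of 6 leukocyte genes and 4 of 5 lymphatic endothelial genes tested. Summed over the muscle list, its level was 3300 CPM, against 3.64 to 189 CPM in the other 14 tumors. Summed over the adipocyte list it was 78.7 CPM, against 0.49 to 15.4 CPM. The 15.4 CPM was in day 3 replicate 2, and the next highest tumor, day 0 replicate 2, was at 9.75 CPM. The part of these tissues in the endothelial values of day 3 replicate 1 or 2 was not tested. In bulk RNA, more endothelial cells and more RNA per endothelial cell cannot be told apart. The day 3 fold changes of the 10 genes and the day 3 counts of gene lists are therefore given with and without day 3 replicate 1. Day 3 replicate 3 differed in another way, with a summed level of the keratinocyte list of 25.2 CPM against 3.54 CPM or less in the other 14 tumors, and the part of that in its endothelial values was not tested.

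The promoter windows of 4 genes are shown because these differ most in how they behaved below: Kdr and Flt1 are VEGF receptors whose levels diverged on day 3, Tek had the widest range of the 10, and Cldn5 followed the other genes least. Each is the 120 bases before the RefSeq start, on GRCm38.p6, read 5′ to 3′ on the gene's own strand. Capitals mark GGAA or its reverse complement TTCC, the core letters bound by ETS factors, a family that includes known regulators of endothelial genes.
Kdr, chr5:75978456-75978575, minus strand: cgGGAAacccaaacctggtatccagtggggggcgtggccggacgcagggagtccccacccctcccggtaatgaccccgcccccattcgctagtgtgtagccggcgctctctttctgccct
Flt1, chr5:147726012-147726131, minus strand: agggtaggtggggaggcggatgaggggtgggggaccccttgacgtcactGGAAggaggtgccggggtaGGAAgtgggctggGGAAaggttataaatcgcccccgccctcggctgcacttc
Tek, chr4:94739169-94739288, plus strand: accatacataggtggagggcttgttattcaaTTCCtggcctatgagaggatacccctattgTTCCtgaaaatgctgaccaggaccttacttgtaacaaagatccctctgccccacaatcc
Cldn5, chr16:18776727-18776846, plus strand: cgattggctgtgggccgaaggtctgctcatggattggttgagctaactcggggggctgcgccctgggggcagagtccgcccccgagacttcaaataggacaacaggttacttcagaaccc

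The windows held 1 match in Kdr, 3 in Flt1, 2 in Tek and 0 in Cldn5, and Tie1 and Emcn, also matched in RefSeq, held 3 each. GGAA on either strand occurs in 73.4% of 32851 mouse promoter windows of this length, and 17.2% hold 3 or more. The letters TATAAA, searched on both strands and sharing no bases with GGAA, occur in 6.34% of windows. Among the 6 matched genes they stood in Flt1 alone, in lower case, with their first base 31 bases before the start. The G and C share was 66.7% in Kdr, 65.0% in Flt1, 60.0% in Cldn5 and 46.7% in Tek, against a median of 54.2% over all windows. These are matches of letters, not measured sites. Pecam1, Cdh5, Vwf and Esam had no entry in the table used.

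On day 0 the 3 untreated tumors gave the baseline. Per length of the longest transcript, Pecam1 stood first, at 21.6 ± 1.44 CPM per kilobase, and Cdh5 second, at 10.7 ± 0.568 (SD, n = 3). Esam followed at 6.39 ± 0.433, Flt1 at 4.95 ± 0.629 and Kdr at 4.03 ± 0.103. Cldn5 at 3.56 ± 0.226, Emcn at 3.25 ± 0.264 and Tie1 at 3.03 ± 0.156 came next. Vwf at 1.05 ± 0.260 and Tek at 0.774 ± 0.0618 were last. The ranges of the 3 tumors overlapped between Cldn5 and Emcn, between Emcn and Tie1, and between Vwf and Tek, and at no other neighbouring step. The baseline was tight, in that the mean log2 CPM over the 10 genes, called the mean endothelial level here, was 3.98, 3.97 and 3.90 in the 3 day 0 tumors.

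In this mean level, treated tumors were far less alike. Single genes did not all follow. The SD of Flt1 was 4.34 CPM on day 0 and 1.70 on day 7, and that of Vwf was 2.30 CPM on day 0 and 1.15 on day 1. The mean endothelial level was 3.84, 3.54 and 4.22 in the day 1 tumors and 5.57, 4.20 and 3.67 in the day 3 tumors. It was 4.68, 3.92 and 3.39 on day 5 and 3.52, 3.98 and 3.17 on day 7. As mean ± SD over 3 tumors, the 5 days gave 3.95 ± 0.0419, 3.87 ± 0.338, 4.48 ± 0.983, 3.996 ± 0.652 and 3.56 ± 0.408 in time order. Without day 3 replicate 1 the day 3 mean was 3.93, next to the day 0 value. On both day 3 and day 5 the tumors ranked in 1 and the same order for 10 of 10 genes, an order that 22.3% and 26.7% of all genes tested showed on those days. The commonest order was shared by 4 of 10 genes on day 0, 8 of 10 on day 1 and 6 of 10 on day 7. Differences between tumors of a day were thus shared by all 10 genes on days 3 and 5, and by fewer on the other days. Of the spread in log2 CPM over the 15 tumors, a median of 30.7% lay between day means for the 10 genes, against a median of 38.2% over all genes tested. Without day 3 replicate 1 these medians were 26.4% and 36.3%. With 3 tumors per day, differences between tumors alone already put part of the spread between day means. No correction was made for this, so these shares do not measure an effect of day.

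**Figure D1:**
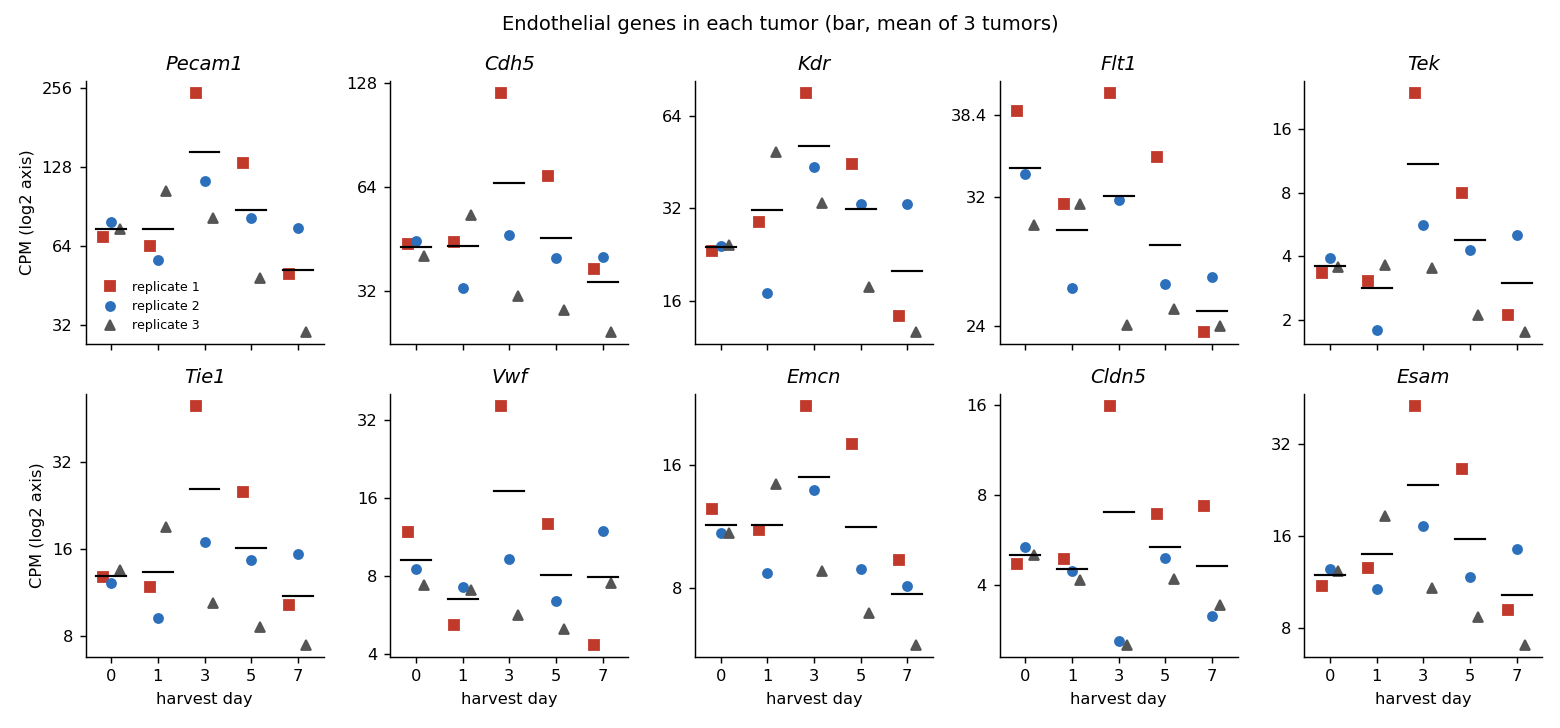
CPM (log2 axis, scaled per panel) of each of the 10 endothelial genes in the 15 tumors by harvest day, with 1 symbol per replicate number and a bar at the mean of the 3 tumors of a day. Day 3 replicate 1 is the highest point in every panel, and in the Cldn5 panel the other 2 day 3 tumors, at 2.61 and 2.53 CPM, are the lowest of the 15.

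The first question was whether the endothelial genes differed from untreated tumors on any day of treatment. With edgeR (quasi-likelihood, Benjamini-Hochberg adjusted p under 0.05), 0 of the 10 genes were called on day 1, 3, 5 or 7, where 0% of the 15494 genes tested were called on each. In the joint test of the 4 treated days, 0 of 10 were called, as were 0% of all genes. Tek alone had an unadjusted p under 0.05 in that joint test (adjusted p = 0.302), a threshold that 16.2% of all genes passed. DESeq2 called 0 of the 10 in the same joint test, where it called 7.65% of all genes. With quality weights, which were 0.0723 for day 3 replicate 1 and 0.316 to 4.03 for the others, limma-voom called 1 of 10, Pecam1 (adjusted p = 0.0431), where it called 24.1% of all genes.

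The junction genes come first. Pecam1 encodes CD31, an adhesion molecule at contacts between endothelial cells and also present on platelets and leukocytes. It measured 69.2, 79.1 and 74.3 CPM in the day 0 tumors and 245, 113 and 81.8 CPM on day 3. The lowest day 3 tumor was just above the highest day 0 tumor, and the log2 difference was 0.98 ± 0.45 (SE; edgeR, adjusted p = 0.166). Leaving out day 3 replicate 1 made it 0.40 ± 0.42 (adjusted p = 0.657). Days 1 and 5 straddled day 0, with 63.8, 56.3 and 103 CPM on day 1 and 132, 81.7 and 48.2 CPM on day 5. On day 7 Pecam1 measured 49.9, 74.6 and 30.0 CPM, overlapping day 0 only through replicate 2.

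Cdh5 encodes VE-cadherin, the cadherin of endothelial adherens junctions. It measured 43.7, 44.7 and 40.4 CPM on day 0 and 119, 46.3 and 30.9 CPM on day 3. The day 3 tumors lay on both sides of day 0, with a log2 difference of 0.61 ± 0.43 that became -0.15 ± 0.34 without replicate 1. On day 7 it measured 37.0, 40.1 and 24.4 CPM, all below the lowest day 0 tumor, though barely so in replicate 2.

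Esam encodes a cell adhesion molecule of endothelial tight junctions. It measured 11.0, 12.5 and 12.3 CPM on day 0, 42.6, 17.3 and 10.9 CPM on day 3, and 9.15, 14.6 and 7.06 CPM on day 7. Its day 3 range took in all of day 0, and the log2 difference of 0.98 ± 0.50 became 0.24 ± 0.44 without replicate 1. Its values followed those of Tie1 more closely than those of any other member, with r = 0.978 over 15 tumors and 0.957 without day 3 replicate 1.

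Cldn5 encodes claudin-5, the main claudin of endothelial tight junctions, and went its own way. It measured 4.72, 5.36 and 5.04 CPM on day 0, 4.91, 4.47 and 4.18 on day 1, and 15.9, 2.61 and 2.53 on day 3. The day 3 tumors therefore held both the highest value and the 2 lowest values of the whole series. With all tumors the log2 difference of day 3 from day 0 was 0.47 ± 0.59 (adjusted p = 0.562), and without replicate 1 it was -0.97 ± 0.34 (adjusted p = 0.3659). Of all genes tested without that tumor, 6.56% were lower at an unadjusted p under 0.05. On day 5 it measured 6.92, 4.94 and 4.20 CPM, and on day 7 it measured 7.36, 3.16 and 3.43 CPM. Day 7 replicate 1 was above every day 0 tumor in Cldn5, while its Pecam1, Kdr and Tek were below every day 0 tumor.

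The VEGF receptors were the second group. Kdr encodes VEGFR2, the main signaling receptor for VEGF-A on endothelial cells. It measured 23.2, 24.2 and 24.3 CPM on day 0 and 76.0, 43.5 and 33.2 CPM on day 3. All 3 day 3 tumors were above all 3 day 0 tumors, with a log2 difference of 1.09 ± 0.47 (adjusted p = 0.149), and of 0.69 ± 0.48 (adjusted p = 0.504) without replicate 1. Kdr and Pecam1 were the 2 of 10 genes whose day 3 tumors all lay above day 0, a pattern shown by 19.4% of all genes tested. Day 1 already held a tumor at 48.7 CPM beside 28.9 and 17.0, day 5 held 44.5, 33.0 and 17.8, and day 7 held 14.3, 33.1 and 12.7 CPM.

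Flt1 encodes VEGFR1, which binds VEGF-A tightly but signals weakly and, in soluble form, holds it away from Kdr. It was the steadiest of the 10, ranging 1.70-fold over all 15 tumors, where Tek ranged 13.6-fold. Without day 3 replicate 1 the ranges were 1.63-fold for Flt1, 4.54-fold for Tek and 4.41-fold for Pecam1. Flt1 measured 38.7, 33.6 and 30.1 CPM on day 0, 31.5, 26.2 and 31.5 on day 1, and 40.3, 31.8 and 24.1 on day 3. Day 3 and day 0 overlapped, with a log2 difference of -0.09 ± 0.18, and Flt1 was the only member not higher on average on day 3. Without replicate 1 its difference was -0.29 ± 0.17. Day 5 held 35.0, 26.4 and 25.0 CPM. Day 7 held 23.7, 26.8 and 24.027 CPM, all below the lowest day 0 tumor, and the log2 difference from day 0 was -0.46 ± 0.18 (adjusted p = 1). Flt1 was the 1 of 10 genes under an unadjusted p of 0.05 in that comparison, where 1.02% of all genes were lower at that level.

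Ratios of CPM were taken for 3 pairs of genes chosen after the values were seen, and are given as a description with no test. How often the ratios of other gene pairs separate day 3 from day 0 was not computed. The ratio of Kdr to Flt1 was 0.599, 0.720 and 0.806 in the day 0 tumors. On day 3 it was 1.88, 1.37 and 1.38, above every day 0 tumor with or without replicate 1. On day 1 the ratio was 0.917, 0.651 and 1.54, on day 5 it was 1.27, 1.25 and 0.712, and on day 7 it was 0.602, 1.23 and 0.529. In 2 of the 3 day 7 tumors the ratio was thus within or below the day 0 range.

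The angiopoietin receptor Tek, or Tie2, keeps vessels quiescent when angiopoietin-1 binds it. It was the lowest member per length and the one with the widest range. It measured 3.34, 3.91 and 3.56 CPM on day 0 and 23.8, 5.66 and 3.54 CPM on day 3. The day 3 tumors ranged from a day 0 value to far above it, and the log2 difference of 1.61 ± 0.68 (adjusted p = 0.146) became 0.36 ± 0.54 (adjusted p = 0.764) without replicate 1. It measured 3.04, 1.79 and 3.63 CPM on day 1, 7.98, 4.30 and 2.12 on day 5, and 2.11, 5.06 and 1.76 on day 7.

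Tie1, an orphan receptor that pairs with Tek, moved with it over the tumors, with r = 0.958 over 15 tumors and 0.904 without day 3 replicate 1. It measured 12.8, 12.2 and 13.5 CPM on day 0, 49.955, 16.8 and 10.3 on day 3, and 10.2, 15.4 and 7.44 on day 7. Its log2 difference of day 3 from day 0 was 1.00 ± 0.53, and 0.09 ± 0.44 without replicate 1. The ratio of Tek to Tie1 was 0.261, 0.320 and 0.263 on day 0 and 0.476, 0.336 and 0.342 on day 3. All day 3 ratios were above all day 0 ratios, narrowly between the nearest tumors. The third pair, Cldn5 to Cdh5, overlapped, with 0.108, 0.120 and 0.125 on day 0 and 0.133, 0.0564 and 0.0819 on day 3.

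**Figure D2:**
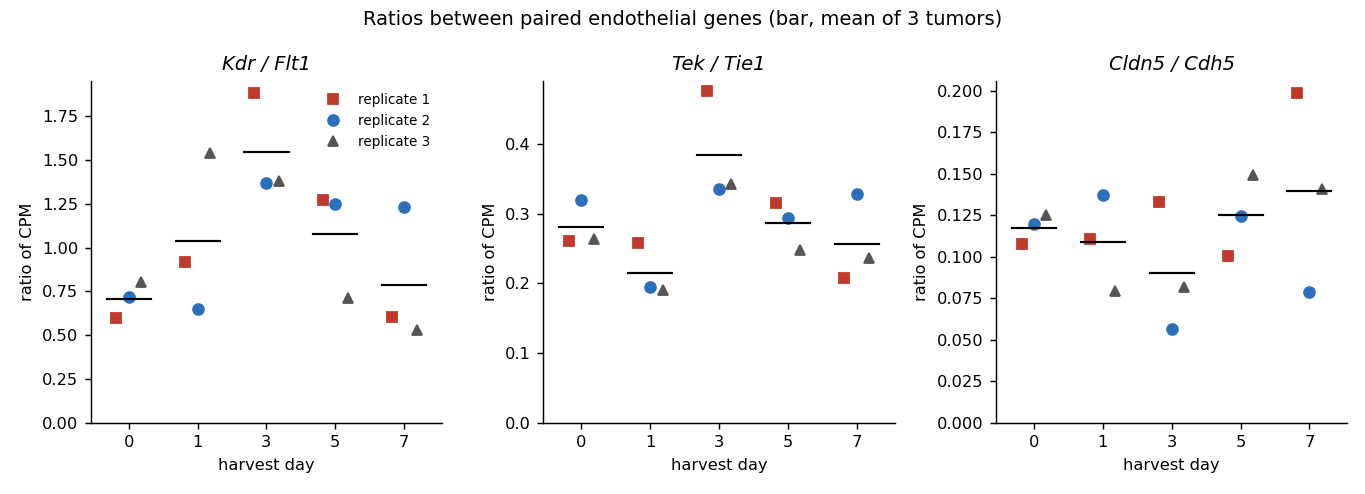
Ratio of CPM between Kdr and Flt1, Tek and Tie1, and Cldn5 and Cdh5 in each of the 15 tumors by harvest day, with 1 symbol per replicate number and a bar at the mean of 3 tumors. The 3 day 3 tumors lie above the 3 day 0 tumors for Kdr to Flt1, while for Cldn5 to Cdh5 day 3 replicates 2 and 3 lie below day 0, at 0.0564 and 0.0819, and replicate 1 above it, at 0.133.

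The last pair are a secreted and a surface glycoprotein. Vwf encodes von Willebrand factor, the platelet-binding protein that endothelial cells store and that megakaryocytes also make. It measured 11.8, 8.56 and 7.40 CPM on day 0, 5.21, 7.30 and 7.10 on day 1, and 36.1, 9.30 and 5.68 on day 3. All 3 day 1 tumors lay below day 0, the only member for which this was so, and narrowly. Of all genes tested, 6.61% showed that pattern. For Vwf the log2 difference of day 3 from day 0 was 0.88 ± 0.59, and -0.30 ± 0.45 without replicate 1. On day 7 Vwf measured 4.35, 11.9 and 7.52 CPM. Emcn encodes endomucin, a sialomucin of capillary and venous endothelium. It measured 12.5, 10.9 and 10.9 CPM on day 0, 22.3, 13.9 and 8.79 on day 3, and 9.35, 8.10 and 5.81 on day 7. The day 7 tumors were all below day 0, with a log2 difference of -0.56 ± 0.38 (adjusted p = 1), whereas day 3 spanned day 0. The day 3 difference for Emcn was 0.39 ± 0.37, and -0.0069 ± 0.37 without replicate 1.

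Across the members, day 3 exceeded day 0 on average in 9 of 10. The median log2 difference was 0.93, against -0.03 for all genes, 48.0% of which were higher. At an unadjusted p under 0.05, 3 of 10 were higher (Pecam1, Kdr and Tek), against 18.3% of all genes. DESeq2 called 0 of 10 at an adjusted p under 0.05, although it called 9.02% of all genes as higher. With day 3 replicate 1 left out, 5 of 10 were higher and the median log2 difference was 0.04. With day 3 replicate 3 left out instead, 10 of 10 were higher, 7 of them at an unadjusted p under 0.05, against 22.6% of all genes in that fit, and leaving out any 1 of the 3 day 0 tumors brought that count to 0 of 10. Without replicate 1 the day 3 difference turned negative for Cdh5, Vwf, Emcn and Cldn5. It stayed positive for Pecam1, Kdr, Tek, Tie1 and Esam, but was smaller than its SE for all of these except Kdr. Tie1 was then near 0, at 0.09 ± 0.44.

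Day 1 and day 5 gave no member at an unadjusted p under 0.05, where 3.16% and 4.8% of all genes reached it in either direction. On day 1, 5 of 10 members were higher than on day 0, and on day 5, 7 of 10 were. On day 7, 10 of 10 were lower on average, with a median log2 difference of -0.26 and a range from -0.56 to -0.12, against 44.5% of all genes higher and a median of -0.02. Cdh5, Flt1 and Emcn, 3 of 10, had all day 7 tumors below all day 0 tumors, a pattern shown by 6.26% of all genes. No day 7 difference from day 0 passed the adjusted threshold by edgeR, DESeq2 or limma-voom.

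**Figure D3:**
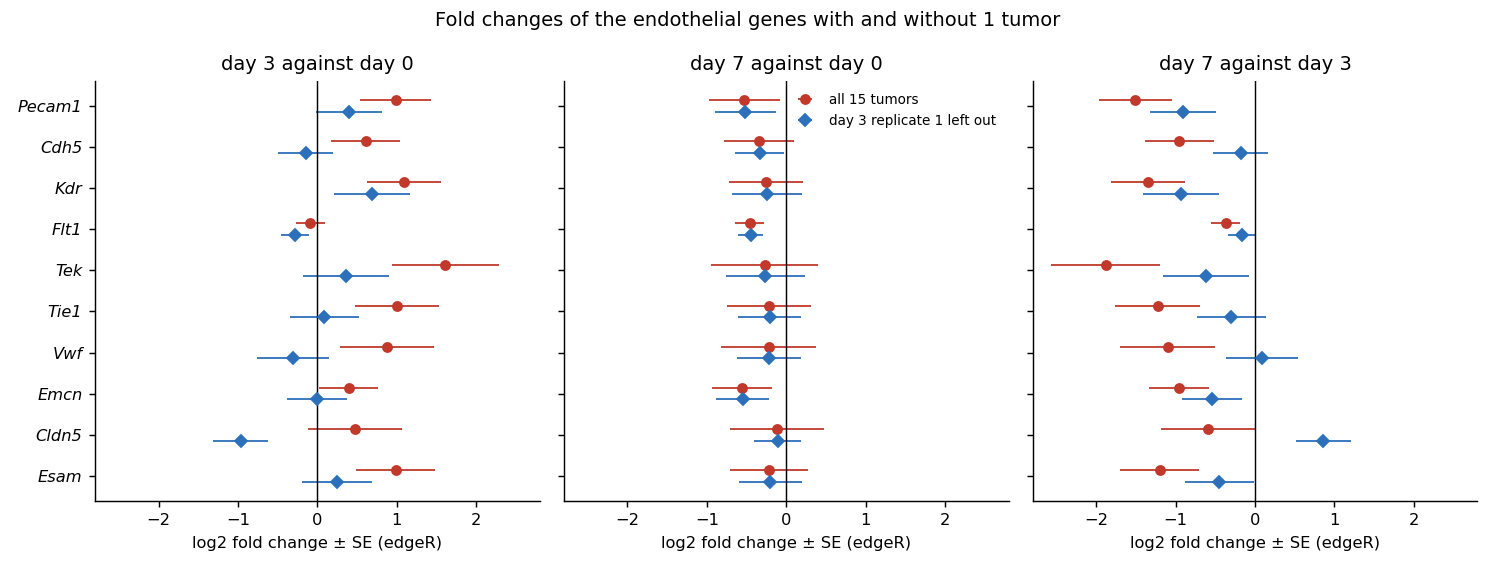
Log2 fold change of each endothelial gene with its SE from edgeR, comparing days 3 and 0, days 7 and 0, and days 7 and 3, with all 15 tumors (circles) and with day 3 replicate 1 left out (diamonds). In the day 3 panel 9 of 10 circles but 5 of 10 diamonds are above 0, and in the panel of days 7 and 0 every symbol is below 0.

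The second question was whether the genes differed between day 3 and the end of the course. All 10 were lower in day 7 than in day 3 tumors on average, with a median log2 difference of -1.15 against 0.02 for all genes, and edgeR called 0 of 10, as it called 0% of all genes. At an unadjusted p under 0.05, 7 of 10 were lower (Pecam1, Cdh5, Kdr, Tek, Tie1, Emcn and Esam), where 22.6% of all genes were lower at that level. The lowest adjusted p was 0.0832, for Pecam1, with a log2 difference of -1.51 ± 0.46. Pecam1 and Kdr, 2 of 10, had all day 7 tumors below all day 3 tumors, as 18.4% of all genes had. DESeq2 called 3 of 10 as lower, Pecam1 (adjusted p = 0.0149), Kdr (0.0281) and Tek (0.0308), where it called 15% of all genes as lower.

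These calls depended on the tumors of day 3. Without day 3 replicate 1, DESeq2 called 0 of the 4 members to which it gave an adjusted p (Pecam1, Cdh5, Kdr and Flt1), gave none for Tek, and edgeR gave a median log2 difference of -0.37 with 8 of 10 lower. Of these Kdr was at -0.93 ± 0.48 (adjusted p = 0.340) and Pecam1 at -0.91 ± 0.42 (adjusted p = 0.318). Cldn5 stood on the other side, at 0.86 ± 0.34 (adjusted p = 0.315). Without day 3 replicate 3, edgeR called 3 of 10, Pecam1, Tek and Emcn, as lower on day 7, where it called 10.1% of all genes as lower. Of the 7 members that were lower at an unadjusted p under 0.05, 0 were so when replicate 1 of day 3 was left out, and the only member at that level was then Cldn5, higher on day 7. Leaving out replicate 3 of day 7 kept Pecam1 alone at that level, and leaving out replicate 1 of day 7 kept Pecam1 and Emcn. This comparison shares its day 3 tumors with that of day 3 against day 0, so high values in those tumors enter both.

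Relative levels show which genes left the shared pattern. For each tumor, the log2 CPM of a gene was set against the mean of the other 9. Relative Kdr was 0.70 ± 0.08 on day 0 and 1.23 ± 0.42 on day 3 (mean ± SD, n = 3), with day 3 replicate 1 at 0.75, inside the range of day 0, and replicates 2 and 3 at 1.39 and 1.54. Relative Pecam1 was 2.51 ± 0.12 on day 0 and 2.84 ± 0.19 on day 3, with all day 3 tumors above all day 0 tumors. How often relative levels of other genes separate in this way was not computed. Relative Flt1 was 1.44, 1.22 and 1.12 on day 0 and -0.26, 0.89 and 1.03 on day 3. Relative Cldn5 was -1.91, -1.70 and -1.72 on day 0, -1.75, -3.08 and -2.54 on day 3, and -0.70, -2.55 and -1.51 on day 7. In day 3 replicate 1 the gene furthest below its day 0 share was therefore Flt1, and in replicates 2 and 3 it was Cldn5. Relative Cdh5 had a mean between 1.46 and 1.72 on every day. Its 3 day 3 tumors lay close together, at 1.48, 1.49 and 1.43, where its CPM spread from 30.9 to 119.

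**Figure D4:**
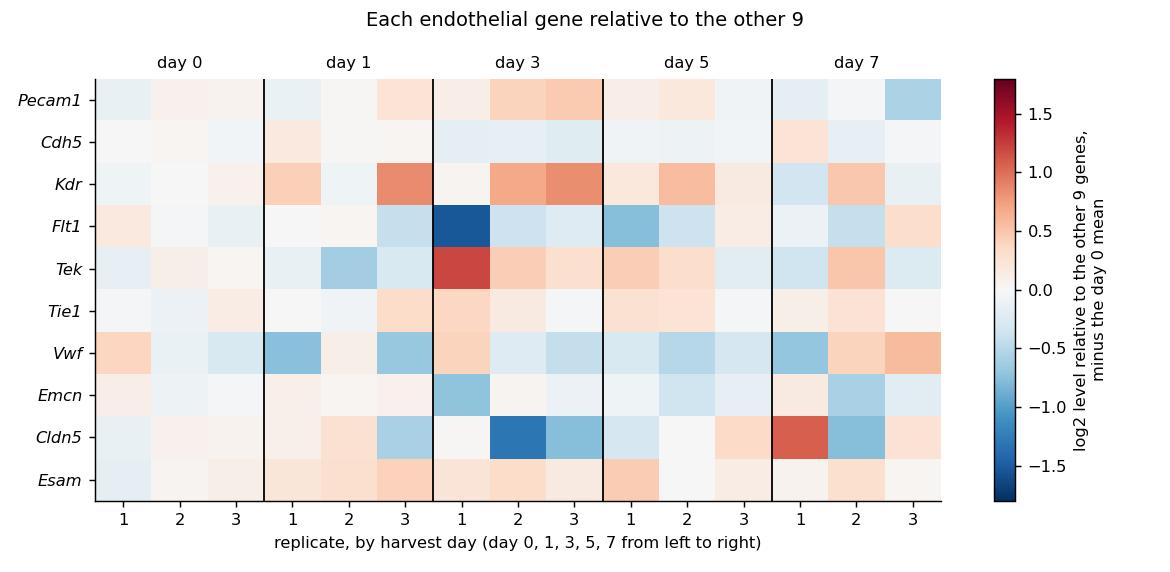
Log2 CPM of each endothelial gene relative to the mean of the other 9, minus its day 0 mean (color scale in log2 units), in the 15 tumors grouped by harvest day. Flt1 and Tek depart most in day 3 replicate 1, Cldn5 is low in day 3 replicates 2 and 3 and high in day 7 replicate 1, and Cdh5 stays near 0 throughout.

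As a description across tumors that share days and, for 14 or 15 points, tumor composition, the 45 pairs of members had a median correlation of 0.819 over 15 tumors and 0.708 without day 3 replicate 1. Cldn5 had the lowest, from -0.22 with Kdr to 0.40 with Cdh5 without that tumor, and Vwf was next, with a median of 0.506. Tie1, Esam and Pecam1 stood at the center, with medians of 0.869, 0.867 and 0.851.

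The wider vessel program was read from other gene lists. For the list counts below, 30.0% of all genes had an unadjusted p under 0.05 on day 3, in either direction, and 18.3% were higher at that level. Without day 3 replicate 1 the share in either direction was 13.1%, and 6.56% were lower. Of 25 other endothelial genes, 21 were higher on day 3 than on day 0, 6 of them at an unadjusted p under 0.05, with 1 lower at that level and a median log2 difference of 0.85. When day 3 replicate 1 was left out, 15 of 25 were higher, 0 reached an unadjusted p under 0.05 and the median was 0.14. On day 7, 23 of 25 were lower than on day 0 (median -0.28, 0 at an unadjusted p under 0.05). Across tumors 18 of the 25 had a correlation over 0.9 with the mean endothelial level, where 3.37% of all genes had, and 9 of 25 against 0.639% without day 3 replicate 1. Cd34, the most abundant of them per length and a marker of blood progenitors and some fibroblasts as well as of endothelium, ran the other way, at 694 ± 10.4 CPM on day 0 and 503 ± 141 CPM on day 3 (log2 difference -0.46 ± 0.19, and -0.25 ± 0.14 without replicate 1), with a correlation of -0.90. Among the next most abundant, Plvap, the protein of capillary fenestrae, differed by 0.81 ± 0.48 on the log2 scale on day 3 and Eng, a TGF-beta coreceptor, by 0.57 ± 0.22. Without replicate 1 these became 0.26 ± 0.48 and 0.30 ± 0.20. Ecscr, a regulator of endothelial motility, was at 31.8 ± 3.74 and 30.0 ± 1.998 CPM on those days. High correlations with the mean endothelial level were not particular to endothelial genes. Over 15 tumors the list median was 0.948 for these 25 genes, 0.884 for mural, 0.841 for activation, 0.804 for leukocyte and 0.789 for adipocyte genes. Without day 3 replicate 1 these medians were 0.880, 0.798, 0.804, 0.681 and 0.600. Other lists were lower over 15 tumors, from 0.750 (Notch and tip cell) to -0.451 (keratinocyte).

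Ligands and coreceptors shared no direction. Of 11 VEGF and angiopoietin ligands and coreceptors, 5 were higher on day 3 (median log2 difference -0.10), 1 at an unadjusted p under 0.05, and 2 were lower at that level. Without replicate 1, 5 of 11 were higher (median -0.0056), 0 at that level, and 2 were lower at it. Vegfa, the ligand of Kdr and Flt1 that tumor cells themselves can make, was at 273 ± 41.8 CPM on day 0, 178 ± 62.5 on day 3 and 291 ± 83.9 on day 7. Vegfb, a ligand of Flt1, was at 30.8 ± 2.13 CPM on day 0 and 21.8 ± 3.77 on day 3, with no overlap. Of the 15494 genes tested, 2937 had all day 3 tumors below all day 0 tumors. The log2 differences on day 3 were -0.61 ± 0.30 for Vegfa and -0.50 ± 0.12 for Vegfb, and -0.35 ± 0.27 and -0.36 ± 0.086 without replicate 1. The coreceptors Nrp1 and Nrp2 differed from day 0 by 0.25 ± 0.18 and -0.13 ± 0.15 on the log2 scale on day 3, and by -0.0056 ± 0.14 and 0.034 ± 0.11 without replicate 1. Of 10 Notch and tip cell genes tested, 7 were higher on day 3 (median 0.25), 0 of them at an unadjusted p under 0.05, and 4 without replicate 1 (median -0.10). The most abundant was the peptide ligand Apln, at 49.0 ± 9.24 CPM on day 0, 32.6 ± 13.8 on day 3 and 70.0 ± 21.4 on day 7. Next came Notch1, Jag1 and Esm1, whose log2 differences on day 3 were 0.15 ± 0.20, -0.07 ± 0.13 and -0.32 ± 0.34. Without replicate 1, Apln moved from -0.59 ± 0.35 to -0.27 ± 0.31, and these 3 were at 0.25 ± 0.22, -0.029 ± 0.15 and -0.17 ± 0.38.

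Endothelial activation genes, which let leukocytes hold to the vessel wall, were higher on day 3 in 5 of 5 cases with a median log2 difference of 1.54, 3 at an unadjusted p under 0.05. Leaving out replicate 1, 4 of 5 were higher, 1 at that level, and the median was 0.74. Vcam1, also made by stromal cells, was at 151 ± 7.26, 273 ± 41.1 and 166 ± 28.8 CPM on days 0, 3 and 7. Its day 3 tumors lay wholly above day 0, as did those of 19.4% of all genes tested. Icam1 was at 26.3 ± 4.94, 84.5 ± 48.8 and 22.9 ± 16.4 CPM on those days. Selp (P-selectin) was at 1.90 ± 1.37 CPM on day 0 and 5.54 ± 5.65 on day 3, and Ackr1, a chemokine carrier of venules, at 0.32 ± 0.11 and 2.84 ± 3.20 CPM. On the log2 scale Vcam1, Icam1, Selp and Ackr1 differed on day 3 by 0.86, 1.69, 1.54 and 3.13 with all tumors, and by 0.74, 1.11, 0.32 and 1.69 without replicate 1. Leukocyte genes were higher on day 3 in 6 of 6 cases (median 1.42, 6 at an unadjusted p under 0.05), and in 6 of 6 without replicate 1 (median 1.02, 3 at that level). The 4 most abundant, Cd52, Laptm5, Itgb2 and Coro1a, had day 3 log2 differences of 1.72 ± 0.53, 1.39 ± 0.49, 1.45 ± 0.49 and 1.24 ± 0.40, which became 1.17 ± 0.51, 0.69 ± 0.43, 1.04 ± 0.50 and 0.73 ± 0.37 without replicate 1. Their part in the endothelial values was not tested.

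Mural cells, the pericytes and smooth muscle that wrap vessels, gave 10 of 11 genes higher on day 3 (median 1.07, 3 at an unadjusted p under 0.05), and 5 of 11 without replicate 1 (median -0.06). Pdgfrb, the pericyte PDGF receptor, was at 129 ± 4.27, 138 ± 42.9 and 103 ± 12.7 CPM on days 0, 3 and 7. The smooth muscle actin gene Acta2 was at 14.5 ± 2.63, 40.1 ± 32.4 and 14.7 ± 11.2 CPM on those days. The other 2 named by abundance, Ndufa4l2 and Mcam, differed by -0.71 ± 0.35 and 0.16 ± 0.29 on day 3. Without replicate 1, Pdgfrb moved from 0.096 to -0.18, Acta2 from 1.47 to 0.58, Ndufa4l2 to -0.67 and Mcam to -0.096. Of 5 lymphatic endothelial genes tested, 4 were higher on day 3 (median 2.46, 2 at an unadjusted p under 0.05) and 2 of 5 without replicate 1 (median -0.06), and Prox1, the master regulator of lymphatic identity, was too low to test. Lyve1 was at 1.804 ± 1.22 CPM on day 0 and between 1.07 and 30.1 on day 3, Ccl21a, which has near-identical copies and is uncertain, at 0.69 ± 0.60 and between 0.35 and 53.3, and Flt4, the receptor for VEGF-C, at 4.71 ± 0.80 and between 3.97 and 18.4. Pdpn, which many fibroblasts also make, was at 117 ± 6.35 and 104 ± 28.7 CPM.

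**Figure D5:**
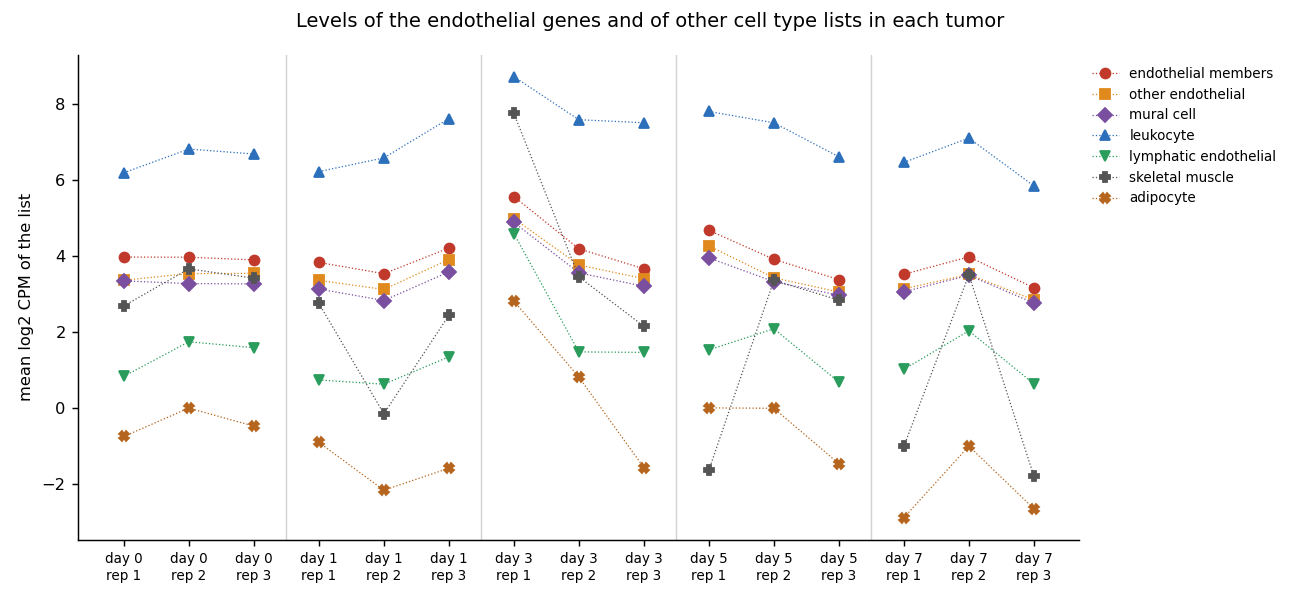
Mean log2 CPM of the 10 endothelial genes and of 6 other gene lists in each of the 15 tumors, by harvest day and replicate. The endothelial, other endothelial and mural levels run close together, and in day 3 replicate 1 the skeletal muscle list stands at 7.76, against 3.67 or less in the other 14 tumors.

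Lists of cells outside the vessel wall were read beside these. Skeletal muscle genes were higher on day 3 in 10 of 10 cases (median 2.91) and in 1 of 10 without replicate 1 (median -0.31). Its 4 most abundant genes, Acta1, Mylpf, Tnnt3 and Tnni2, had day 3 maxima of 894, 258, 234 and 129 CPM, and Myh4, Myh2 and Pvalb had no count in at least 1 tumor. Adipocyte genes gave 6 of 6 and, without replicate 1, 5 of 5 higher on day 3 (medians 1.998 and 0.41). Cfd, Adipoq, Cidec and Plin1 had day 3 maxima of 34.7, 14.97, 13.97 and 8.69 CPM, and Adipoq, Cidec, Adrb3, Retn, Lep and Cfd had no count in at least 1 tumor. Day 5 replicate 1, the second highest tumor in the mean endothelial level at 4.68, had a muscle list level of -1.63, next to the lowest of all, while its leukocyte, mural and activation list levels, at 7.81, 3.96 and 3.87, were second highest.

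Platelet genes bear on Vwf and Pecam1, which platelets and their precursors also express. Of 5 tested, 4 were higher on day 3 (median 0.35, 0 at an unadjusted p under 0.05, 1 lower at that level), as were 4 of 5 without replicate 1 (median 0.29), and Ppbp, Gp9 and Gp5 were too low to test. Pf4, Itga2b, Gp1bb and Gp1ba were at 25.0 ± 12.4, 7.37 ± 1.07, 3.96 ± 0.22 and 1.68 ± 0.45 CPM on day 0. Their day 3 log2 differences were 0.34 ± 0.44, 0.35 ± 0.24, -1.10 ± 0.37 and 0.59 ± 0.38, and 0.11 ± 0.49, 0.29 ± 0.26, -0.83 ± 0.36 and 0.37 ± 0.40 without replicate 1. Erythroid genes, a sign of blood in the sample, behaved differently from the vessel genes, with 5 of 5 higher on day 7 than on day 0 (median 3.19, all at an unadjusted p under 0.05, lowest adjusted p = 1). In that comparison 2.07% of all genes had an unadjusted p under 0.05 in either direction. Hbb-bs, Hba-a1, Hba-a2 and Hbb-bt, near-identical within each globin pair and so uncertain one by one, were at 55.7 ± 41.3, 41.9 ± 31.3, 14.2 ± 10.3 and 18.7 ± 13.4 CPM on day 7, against 6.07 ± 3.09, 5.42 ± 2.52, 1.34 ± 0.30 and 1.69 ± 0.79 on day 0. Their correlation with the mean endothelial level had a median of -0.19. Of 4 keratinocyte genes only Krt10 was tested, at 2.79 ± 0.66 CPM on day 0 and 2.58 ± 0.63 on day 3. Krt5 and Krt14 failed the filter because their counts lay in 1 tumor, day 3 replicate 3, with 106 and 470 counts against 1 and 6 at most in the others, and Krt1 had 1 count in all.

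Genes outside the 10 were ranked by the correlation of their log2 CPM with the mean endothelial level over the 15 tumors, as a description. The nearest was S1pr1, a sphingosine 1-phosphate receptor of endothelial cells and lymphocytes, with r = 0.989, and 0.984 without day 3 replicate 1, first in both rankings. It averaged 21.3 CPM on day 0, 33.2 on day 3 and 17.5 on day 7. C130074G19Rik, Srgap1 and Vstm4 followed at 0.980, and Lama4, a laminin chain of vascular basement membrane, at 0.979. Sparcl1 (0.978), Lsp1 (0.977), Col4a1 (0.976), Lrrc32 (0.975) and Pik3r3 (0.975) completed the 10 nearest of 15484 genes compared. Of these 10, only S1pr1 was on the list of other endothelial genes. Without day 3 replicate 1, 4 of the 10 remained among the nearest 10, S1pr1, Col4a1, Sparcl1 and Vstm4. Col4a1, a chain of the type IV collagen of basement membranes, held second place there with r = 0.977. The others entering were Adcy4, Col15a1, Rtn4rl2, Plvap, Col4a2 and Robo4, of which Col4a2 is the partner chain of Col4a1 and Robo4 an endothelial guidance receptor.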

How the data were processed

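Poly(A) RNA of 15 whole tumors was sequenced as single-end reads of 100 bases. The authors estimated transcript abundance with kallisto, summed it to genes with tximport on the GRCm38 (mm10) reference and deposited expected counts per gene as whole numbers, 1 column per tumor with no pooling. The transcript set and strandedness are not given in the sources used here, and kallisto splits reads shared by similar transcripts. Of 32544 entries, 9156 had no count and 1 was a date in place of a gene name, which held 0.0268% of counts or less and was dropped. Harvest day and replicate came from the labels.

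Genes exceeding 0.366 CPM in 3 or more tumors, the study's own filter, were tested with edgeR 4.0.16 (R 4.3.3): TMM factors, a quasi-likelihood model of harvest day alone over the 15 tumors, two-sided tests and Benjamini-Hochberg adjustment, called at an adjusted p under 0.05. SE values are the size of the log2 difference divided by the square root of the F statistic of the same fit. The study names no test for this time course. DESeq2 1.42.0, limma 3.58.1 (voom with quality weights), RLE factors, no filter, fits of 2 days, a replicate block and leaving out each tumor were alternatives, and DESeq2 without day 3 replicate 1 was added after the data were seen. The edgeR step was tested on simulated data with the same spread for every gene and no tumor standing apart. That test therefore does not show how much the step could detect in these tumors. Log2 CPM used a prior count of 2. Intervals of counts cover counting error only, and the p-values measure the spread between these tumors.

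The 10 genes and all lists were chosen with earlier results of these data known. All 10 genes are reported, and from each other list the counts and up to 4 genes with the highest mean CPM per kilobase of the longest GENCODE M21 transcript. The 10 genes nearest in profile are named too. Names matched GENCODE for 31401 entries. Promoters are RefSeq's, on GRCm38.p6.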

Additional observations from a re-analysis of the deposited data

How the results depend on the processing

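Under RLE factors every count of members called or at an unadjusted p under 0.05 was as in the main fit, and so it was without the filter, except that the joint test then had 2 members at an unadjusted p under 0.05 in place of 1. Of 660 fold changes of members recomputed for day 3 or 7 against day 0 and day 7 against day 3 under 22 alternatives, 632 kept their direction and their side of the threshold, 22 changed sign, and 6 passed the threshold with the same sign. For members called, DESeq2 gave 3 on day 7 against day 3 (20.9% of all genes), limma-voom gave 1 in the joint test (24.1%), and leaving out 1 tumor gave 0 to 3 on day 7 against day 3, the 3 without day 3 replicate 3 (13.6%). At an unadjusted p under 0.05, limma-voom gave 2 members on day 3, Kdr higher and Cldn5 lower (28.3% of all genes). It gave 1 on day 5 (32.8%), 3 on day 7 (8.47%), 2 on day 7 against day 3 (29.1%) and 4 in the joint test (42.9%). DESeq2 gave 4 on day 3, all higher (34.0%), and 3 in the joint test (24.6%). A fit of only the 2 days compared gave 2 on day 3 (20.9%), 2 on day 7 (4.91%) and 3 on day 7 against day 3 (18.6%). DESeq2 without day 3 replicate 1 gave 1 on day 3 (Cldn5, lower, against 14.3% of all genes). It gave 3 on day 7 against day 3 (Kdr and Pecam1 lower, Cldn5 higher, against 17.3%) and 0 in the joint test (12.1%). Leaving out 1 tumor gave 0 to 7 on day 3. The count was 0 without any 1 of the day 0 tumors (16.9% to 21.7% of all genes). It was 1 without day 3 replicate 1, which was Cldn5 and lower (13.1%), and 7 without day 3 replicate 3 (40.2%). On day 7 leaving out 1 tumor gave 0 to 1 (0 without replicate 1 of day 0, or replicate 1 or 3 of day 7). For day 7 against day 3 it gave 1 to 9, the 9 without day 3 replicate 3 (44.0% of all genes). There was 1 without replicate 1 of day 3, which was Cldn5 and higher (15.7%), 1 without replicate 3 of day 7 (19.1%) and 2 without replicate 1 of day 7 (21.4%). In the joint test it gave 0 to 5, with 5 without day 3 replicate 3 (21.7%) and 3 without day 7 replicate 2 (19.4%). There were 2 without day 5 replicate 1 (16.2%) or 3 (19.1%). The joint count was 0 without any 1 of the day 0 tumors, day 1 replicate 1 or 2, day 3 replicate 1, day 5 replicate 2 or day 7 replicate 1 or 3.

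For day 3 against day 0, limma-voom turned Cdh5 to -0.14, Vwf to -0.18, Emcn to -0.011 and Cldn5 to -0.91, and DESeq2 without day 3 replicate 1 gave -0.15, -0.31, -0.010 and -0.97. For day 7 against day 3, limma-voom turned Cldn5 to 0.64 and DESeq2 without day 3 replicate 1 turned it to 0.86 and Vwf to 0.090. Leaving out 1 tumor moved the log2 difference on day 3 between -0.15 and 0.95 for Cdh5, -0.97 and 0.88 for Cldn5, -0.0069 and 0.66 for Emcn, -0.29 and 0.079 for Flt1 and -0.30 and 1.29 for Vwf. On day 7 it lay between -0.61 and 0.10 for Cldn5 and -0.64 and 0.070 for Vwf, and on day 7 against day 3 between -1.09 and 0.86 for Cldn5 and -1.52 and 0.090 for Vwf. Of these 9 signs, 6 turned without day 3 replicate 1, which also had the lowest limma-voom weight. The other 3 turned without other tumors: Flt1 on day 3 without day 0 replicate 1 or day 3 replicate 3, Cldn5 on day 7 without replicate 2 or 3 of day 7, and Vwf on day 7 without replicate 1 of day 7. Other causes were not tested.

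Same-numbered tumors of different days did not regularly deviate together. Of 30 pairs, 9 had a correlation of their deviations over 0.1 (range -0.62 to 0.51), and 2 of 15 tumors were most like their own number. The highest were replicate 3 between days 3 and 7 (0.51), 3 and 5 (0.49) and 5 and 7 (0.48), and replicate 1 between days 3 and 5 (0.45). Replicate 3 of day 1 had -0.53, -0.62 and -0.54 with replicate 3 of days 3, 5 and 7. These values cannot decide whether tumors of a number shared a batch. With the number as a replicate block, 0 members were called in any comparison. At an unadjusted p under 0.05 that fit gave 0 on day 3 (24.7% of all genes), 4 on day 7 against day 3 (30.5%) and 0 in the joint test (8.55%).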
